A study of Mus musculus with 9 samples.

Results

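The grainyhead-like genes Grhl1, Grhl2 and Grhl3 were followed through the wall of the neonatal mouse bladder, from the urothelium, the epithelium that lines the lumen, through the stroma beneath it to the detrusor, the smooth muscle coat. Their probe sets, the groups of short probes that report 1 transcript on the array, were taken by the platform annotation. That gave 6 of the 45037 probe sets that were not array controls, namely 1 for Grhl1, 4 for Grhl2 and 1 for Grhl3, out of 18193 genes with a probe set of their own. Arrays numbered 9, with 3 each for urothelium, stroma and detrusor. All came from FVB/N mice with an SMGA/EGFP transgene, a green fluorescent protein transgene named for smooth muscle gamma actin, at postnatal day 1 or 2 and of unknown sex. Urothelium and stroma had 1 array each from day 1 and 2 from day 2, and detrusor had 2 from day 1 and 1 from day 2. Layers were cut from frozen sections by laser capture, were not pooled, and their RNA was amplified in 2 rounds. Nothing in the labels ties an array to an animal, so the p-values measure only the spread between these arrays, which may be technical and may be shared where layers came from 1 animal.

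Grainyhead-like proteins are transcription factors named after the fly gene grainyhead. They bind DNA as dimers and are known for switching on epithelial genes, including those for cell junctions and surface barriers. In mice Grhl2 is known as an activator of Cdh1 and Cldn4, Grhl3 is needed for the skin barrier and for the maturation of the urothelial surface, and Grhl1 acts on desmosomes in the skin and hair. Grhl2 and Grhl3 are also both needed to close the neural tube.

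Values are linear probe set intensities scaled by the authors to the same level on every array. Comparisons used log2(intensity + 39.31), so that differences of dim probe sets are understated. A probe set was called when limma, fitted over all 45037 probe sets, gave a Benjamini-Hochberg adjusted p under 0.05. Against detrusor, urothelium was called higher for 2 of the 6 grainyhead-like probe sets in this fit, 1 of Grhl2 and the 1 of Grhl3, and 0 lower. Of all probe sets 2.64% were called higher there, 2.57% lower and 5.21% either way. Between stroma and detrusor 1 of 6, of Grhl2, was called higher in stroma and 0 lower, against 0.624% of all probe sets higher, 0.859% lower and 1.48% either way. Between urothelium and stroma 0 of 6 were called, although 3 of 6 had an unadjusted p under 0.05, and only 0.00444% of all probe sets were called higher there, 0.0355% lower and 0.04% either way. An unadjusted p under 0.05 was found there for 5759 of all 45037 probe sets. In captured tissue, fewer cells of a type and less RNA per cell cannot be told apart in any of these differences.

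The brightest Grhl2 probe set was 1427046_at. Its intensities were 6097, 4367 and 5653 in the urothelium arrays, 2131, 1232 and 3903 in the stroma arrays and 155.4, 147.8 and 183.1 in the detrusor arrays. The layers did not overlap, with urothelium highest, stroma next and detrusor lowest, and the detrusor arrays lay close together. On the log2 scale the means were 12.39 ± 0.25 in urothelium, 11.11 ± 0.82 in stroma and 7.65 ± 0.13 in detrusor (SD, n = 3 each). Urothelium was 26.7-fold above detrusor, a log2 difference of 4.74 ± 0.43 (SE, limma adjusted p = 0.000344). Stroma was 11.0-fold above detrusor (log2 difference 3.46 ± 0.43, limma adjusted p = 0.00470). The step between urothelium and stroma was 1.27 ± 0.43 and did not pass (limma adjusted p = 0.249), with a 95% interval from 0.33 to 2.22. Both Grhl2 calls held in all 18 alternative settings tried, with adjusted p up to 0.00405 against detrusor for urothelium and up to 0.0287 for stroma.

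Grhl3, by its only probe set 1436932_at, had intensities of 4159, 8527 and 3162 in urothelium, 854.4, 404.8 and 1891 in stroma and 74.07, 172.7 and 140.7 in detrusor. Here too the layers did not overlap and followed the order urothelium, stroma, detrusor. The log2 means were 12.25 ± 0.73 in urothelium, 9.84 ± 1.06 in stroma and 7.35 ± 0.47 in detrusor (SD, n = 3 each). Grhl3 was 29.9-fold higher in urothelium than in detrusor (log2 difference 4.90 ± 0.58, SE, limma adjusted p = 0.00123), and this held in all 18 alternatives. The neighbouring steps did not pass. Urothelium minus stroma was 2.41 ± 0.58 (limma adjusted p = 0.128, 95% interval 1.14 to 3.68), and stroma minus detrusor was 2.49 ± 0.58 (limma adjusted p = 0.0595, 95% interval 1.22 to 3.75). Single arrays decided these 2 calls, since without stroma 3 the step between urothelium and stroma was called (2.95, limma adjusted p = 0.0424), and without stroma 2 the step between stroma and detrusor was (3.01, limma adjusted p = 0.0281).

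Grhl1, probe set 1424030_at, had intensities of 4621, 9988 and 4592 in urothelium, 1465, 3.32 and 2620 in stroma and 260.6, 478.5 and 656.3 in detrusor. Every urothelium array lay above every other array, but stroma 2 fell below all detrusor arrays while stroma 1 and 3 lay above them. Its value of 3.32 is under the constant added before the log, and the file holds no detection calls, so it cannot be called absent. The log2 means were 12.55 ± 0.64 in urothelium, 9.12 ± 3.23 in stroma and 8.90 ± 0.62 in detrusor (SD, n = 3 each). Grhl1 was not called for urothelium against detrusor (3.66 ± 1.18, SE, limma adjusted p = 0.112), urothelium against stroma (3.44 ± 1.18, limma adjusted p = 0.252) or stroma against detrusor (0.22 ± 1.18, limma adjusted p = 0.950). All layers share 1 estimate of spread in this fit, and without stroma 2 the same difference of urothelium from detrusor, 3.66, was called (limma adjusted p = 0.00135). Urothelium minus stroma was 1.59 without stroma 2, not called (limma adjusted p = 0.202). The difference between stroma and detrusor had no settled sign, at 2.07 without stroma 2 and -0.91 without stroma 3, neither called.

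**Figure D1:**
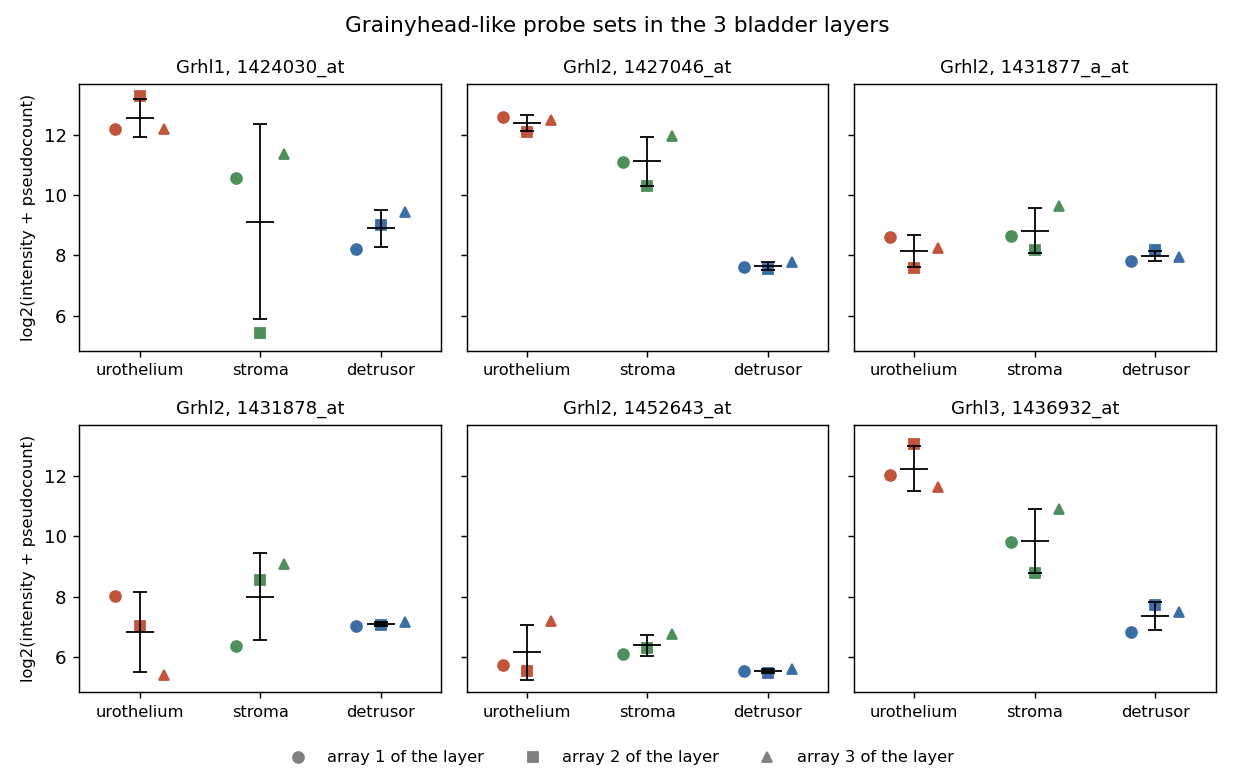
Levels of the 6 grainyhead-like probe sets, as log2(intensity + 39.31) on the vertical axis, in urothelium, stroma and detrusor; each point is 1 array and the bars are the mean and SD of 3 arrays. Grhl2 1427046_at and Grhl3 step down from urothelium through stroma to detrusor, Grhl1 has 1 stroma array at the bottom of the scale, and the other 3 Grhl2 probe sets show no such steps.

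The other 3 probe sets of Grhl2 did not follow 1427046_at. Probe set 1431877_a_at had intensities of 349.6, 151.5 and 263.2 in urothelium, 361.0, 252.1 and 755.3 in stroma and 188.3, 249.2 and 205.6 in detrusor, and urothelium overlapped both other layers. Probe set 1431878_at read 222.8, 90.31 and 3.17 in urothelium, 43.13, 333.9 and 500.2 in stroma and 90.87, 95.03 and 105.1 in detrusor. Probe set 1452643_at, under its array's median on all 9 arrays, read 13.87, 6.86 and 107.1 in urothelium, 29.56, 39.30 and 70.35 in stroma and 6.83, 4.70 and 9.57 in detrusor. For urothelium against detrusor their log2 differences were 0.16 ± 0.55, -0.27 ± 0.80 and 0.62 ± 0.42 (SE), and none was called in any of the 3 layer comparisons or in any alternative tried, of which the brightness filter could not be applied to 1431878_at and 1452643_at, which it removes. The 95% intervals reached at most 1.36, 1.47 and 1.54, all under the lower bound of 3.79 for 1427046_at. In stroma 1431877_a_at and 1452643_at lay above every detrusor array, by 0.84 ± 0.55 and 0.86 ± 0.42, and neither passed (limma adjusted p = 0.494 and 0.359). Where on the Grhl2 transcripts each probe set lies is not in the sources used here. So the layer pattern of Grhl2 rests on 1 probe set of 4.

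Counted over all 6, every urothelium array was above every detrusor array for 3 probe sets, against 11.4% of all probe sets, and above every stroma array for 3, against 5.16%. Every stroma array was above every detrusor array for 4, against 14.1%. Of the 6, 4 reached their array's median on at least 3 arrays. For 1427046_at and Grhl3 those were the urothelium and stroma arrays alone, so they would have passed such a filter only through the layers in which they were bright, and the layer tests used no such filter.

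**Figure D2:**
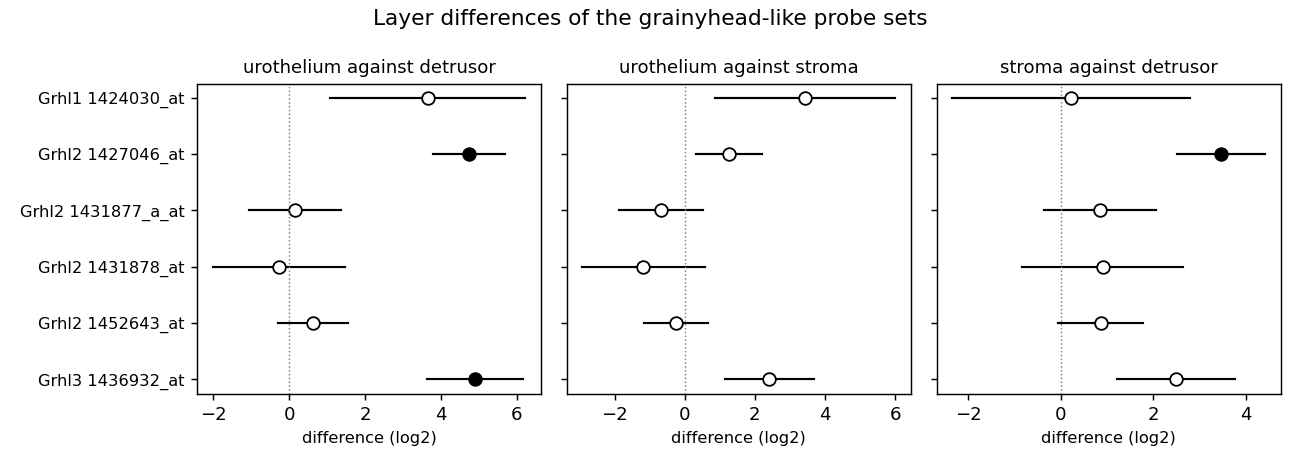
Differences between layers on the log2 scale for the 6 probe sets; points are the limma estimates, lines their 95% intervals, and filled points passed at an adjusted p under 0.05. Filled are Grhl2 1427046_at and Grhl3 for urothelium against detrusor and Grhl2 1427046_at for stroma against detrusor.

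The stroma values have to be set beside the traces of other layers on these arrays. The 5 urothelium markers Upk1a, Upk1b, Upk3a, Krt5 and Krt20 summed to 118564, 165596 and 135835 intensity units in urothelium, to 25888, 2206 and 115696 in stroma and to 933.2 to 2392 in detrusor. By this sum stroma 3 was near the urothelium arrays, stroma 1 lay between, and stroma 2 was within the detrusor range. Marker by marker, stroma 3 stood between 20.3% (Krt20) and 106% (Upk1b) of the urothelium mean intensity. Each of the 5 was called higher in the urothelium against detrusor comparison, and 0 of 5 were called by limma between urothelium and stroma, although all 5 had an unadjusted p under 0.05 there. Of all probe sets 2.64% were called higher in urothelium against detrusor. In urothelium against stroma 0.04% were called either way, and 5759 of 45037 had an unadjusted p under 0.05. The 6 smooth muscle markers summed to 27576, 19514 and 257727 in urothelium, to 156626, 48681 and 133445 in stroma and to 258293 to 374395 in detrusor, so that by this sum urothelium 3 was close to the detrusor arrays. Its Acta2 and Actg2 were within the detrusor range. Its log2 levels of Myh11 (15.66), Cnn1 (13.23), Smtn (11.33) and Des (12.02) were below the lowest detrusor arrays, at 15.81, 14.49, 13.27 and 13.47. For urothelium against detrusor 3 of the 6 were called lower, against 2.57% of all probe sets. The 5 fibroblast markers summed to 86788 to 174891 in urothelium, 250479 to 353550 in stroma and 173687 to 239499 in detrusor. The 3 mesothelium markers Msln, Upk3b and Wt1 summed to 20159 to 42050 in urothelium, 2667 to 7321 in stroma and 190.9 to 1215 in detrusor, and Msln and Upk3b, also a uroplakin gene, were called higher for urothelium against detrusor. Wt1 was not called and ran otherwise. Its log2 levels were 10.90, 6.32 and 9.92 in urothelium, 7.87, 12.53 and 10.51 in stroma and 7.56, 6.29 and 5.52 in detrusor, highest on stroma 2. Of the 4 endothelium markers 0 were called by limma in these comparisons, with an unadjusted p under 0.05 for 2 of 4, both lower, in urothelium against stroma and for none in the others. Median array intensity ran from 133.3 to 388.5, highest in stroma 3. The ratio of 3' to 5' Actb signal was 5.32 to 8.49 in urothelium, 5.0 to 24.7 in stroma and 2.27 to 7.49 in detrusor. The RNA was amplified in 2 rounds, so this ratio cannot be read as RNA degradation alone. The same ratio for Gapdh was 19.1 to 23.4 in urothelium, 15.3 to 31.8 in stroma and 15.9 to 34.7 in detrusor.

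On stroma 2 Grhl2 kept a larger share of its urothelium level than the 5 urothelium markers did. Taking the mean intensity in urothelium as 100%, Grhl2 1427046_at was at 39.7%, 22.9% and 72.6% in stroma 1, 2 and 3 and at 2.75% to 3.41% in detrusor. Grhl3 was at 16.2%, 7.66% and 35.8% in stroma and at 1.40% to 3.27% in detrusor. Grhl1 was at 22.9%, 0.0519% and 40.9% in stroma and at 4.07% to 10.3% in detrusor. On stroma 2 the markers were at 2.97% for Upk1a, 1.94% for Upk1b, 0.610% for Upk3a, 2.79% for Krt5 and 2.42% for Krt20. Stroma 2 thus had Grhl2 well above the detrusor arrays while Upk1a, Upk1b and Upk3a were within the detrusor range there and Krt5 and Krt20 were just above it. Upk2, a uroplakin gene outside those 5, was at 29.2% on stroma 2, above the share of Grhl2, and at 6.96% to 22.3% in detrusor. On stroma 3, in contrast, Upk1b reached 106% and Upk3a 75.3%. Without stroma 3 and urothelium 3, Grhl2 was still called higher in stroma than in detrusor (3.05 ± 0.46, limma adjusted p = 0.0190), and Grhl2 (4.69, adjusted p = 0.000809) and Grhl3 (5.20, adjusted p = 0.00143) in urothelium than in detrusor. What share of the stroma signal came from urothelial RNA was not tested.

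**Figure D3:**
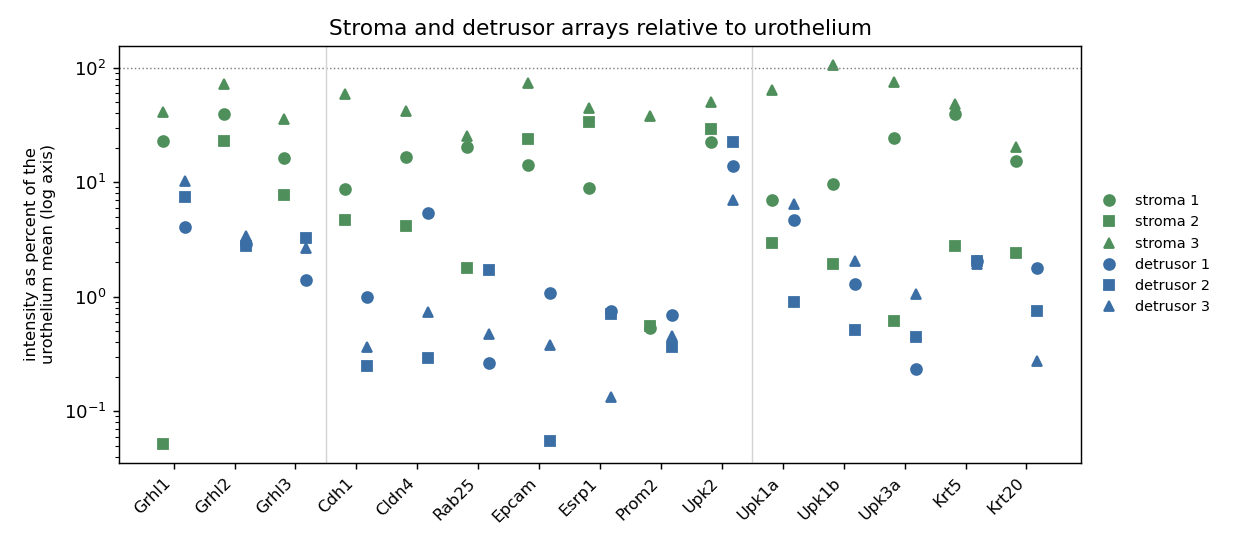
Intensity of each stroma and detrusor array as a percentage of the urothelium mean (log axis) for the 3 grainyhead-like genes on the left, 7 described targets in the middle and 5 urothelium markers on the right. The 7 are the described targets called higher in urothelium than in detrusor. On stroma 2 (green squares) Grhl2 is at 22.9%, Epcam at 23.6%, Esrp1 at 33.4% and Upk2 at 29.2%. The other targets shown are lower there, Cdh1 at 4.70%, Cldn4 at 4.11%, Rab25 at 1.77% and Prom2 at 0.555%. The 5 markers are between 0.610% and 2.97%.

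Postnatal day was compared with layer as a covariate. None of the 6 probe sets was called by limma for day 2 against day 1, and 0 had an unadjusted p under 0.05, with 0.00666% of all probe sets called higher on day 2, 0.00444% lower and 0.0111% either way. The estimates were 0.23 ± 0.38 for Grhl2 1427046_at, -0.32 ± 0.51 for Grhl3 and -0.82 ± 1.01 for Grhl1 (SE). Taken within day 1, with 1 or 2 arrays per layer and no test, urothelium minus detrusor was 4.53 for Grhl2 1427046_at, 5.79 for Grhl3 and 4.67 for Grhl1. Within day 2 it was 4.73, 4.35 and 2.74. Stroma minus detrusor was 3.51 and 3.33 for Grhl2 1427046_at and 2.53 and 2.36 for Grhl3 on days 1 and 2, whereas for Grhl1 it was 1.93 on day 1 and -1.05 on day 2, where stroma 2 belongs.

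Over the 9 arrays, which include the layer differences themselves, the log2 levels of Grhl2 1427046_at and Grhl3 had a Pearson r of 0.94, those of Grhl1 and Grhl3 of 0.79 and those of Grhl1 and Grhl2 of 0.64. Genes were then ranked by r with each member among 13063 genes with a probe set at or above its array's median on at least 3 arrays, a filter that Grhl2 1427046_at and Grhl3 pass through urothelium and stroma alone. Nearest Grhl2 were Ehf, an epithelial ETS factor (r = 0.994), 9530036O11Rik (0.992), Bmp2, a bone morphogenetic protein ligand (0.987), Cyp4f39 (0.984) and Ripk4, a kinase needed for skin differentiation in mice (0.984). In urothelium against detrusor Ehf differed by 8.02 ± 0.73 (limma adjusted p = 0.000344), Ripk4 by 8.10 ± 0.57 (adjusted p = 0.00011) and Bmp2 by 4.95 ± 0.44 (adjusted p = 0.000325). On stroma 2 Ehf, Ripk4 and Bmp2 stood at 4.47%, 7.23% and 19.7% of their urothelium means, 9530036O11Rik at 21.2% and Cyp4f39 at 36.3%. Closest to Grhl3 were Rnf144b, St8sia6, Paqr5, Acp5 and Cd2ap, at r from 0.992 to 0.994. Closest to Grhl1 were Tmco4 (0.984), Adgrg6 (0.983), Evpl, which encodes the cornified envelope protein envoplakin (0.976), Tmem170 (0.973) and Arfgef3 (0.972). Those 5, chosen by likeness to Grhl1, also had their lowest level on stroma 2, which the choice itself favours. Of the 5144 probe sets with all urothelium arrays above all detrusor arrays, 261, or 5.07%, had stroma 2 below and stroma 1 and 3 above every detrusor array, as Grhl1 had. Grhl3 ranked 141st of 13063 genes for likeness to Grhl2, and Upk1b 123rd.

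The start regions of Grhl1 and Grhl3 are shown because these were the members with a window. CACCTG is marked because Zeb1 and Zeb2, repressors that bind it, were lower in urothelium than in detrusor, as described further on. Whether they act on these genes was not tested. Each window holds 250 bases before and 50 after an annotated start, 5′ to 3′ on the gene's strand, from RefSeq on GRCm38.p6. Capitals mark CACCTG or its reverse complement CAGGTG. Of the 3 members, 2 had a window and Grhl2 had none, and for Grhl1 the first of 2 starts is shown.
Grhl1, chr12:24572037-24572336, plus strand: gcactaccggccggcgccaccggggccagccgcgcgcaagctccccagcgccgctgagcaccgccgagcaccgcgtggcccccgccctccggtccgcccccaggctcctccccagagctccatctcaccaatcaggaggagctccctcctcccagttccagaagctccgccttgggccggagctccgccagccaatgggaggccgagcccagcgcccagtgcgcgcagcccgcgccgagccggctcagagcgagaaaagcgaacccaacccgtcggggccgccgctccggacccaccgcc
Grhl3, chr4:135573583-135573882, minus strand: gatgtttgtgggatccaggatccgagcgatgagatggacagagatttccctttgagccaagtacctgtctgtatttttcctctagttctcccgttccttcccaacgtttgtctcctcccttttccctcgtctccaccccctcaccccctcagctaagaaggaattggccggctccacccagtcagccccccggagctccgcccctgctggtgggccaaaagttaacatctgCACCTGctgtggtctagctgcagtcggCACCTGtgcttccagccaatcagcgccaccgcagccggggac
The Grhl3 window held 2 copies of CACCTG, and neither Grhl1 window held any. Of all 32851 windows 20.2% held at least 1 copy on either strand. The grainyhead site AACCGGTT, which is its own reverse complement, was in none of the windows of Grhl1 and Grhl3 and in 0.146% of all windows. Its looser forms AACCNGTT and ACCNGTT, each of which takes in the stricter one, were not in them either and were in 2.09% and 8.13% of all windows on either strand. A match is a description of letters, not a bound site.

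Of 11 genes described elsewhere as targets of grainyhead-like factors, urothelium exceeded detrusor with a call for 7 and was lower for 0, with a median log2 difference of 5.19 against -0.02 for all probe sets. Of all probe sets 2.64% were called higher there and 2.57% lower. Epcam, an epithelial adhesion protein (7.80 ± 0.69, SE, limma adjusted p = 0.000325), Esrp1, an epithelial splicing factor (7.12 ± 0.59, adjusted p = 0.000246), Cdh1, E-cadherin of the adherens junction (7.07 ± 0.79, adjusted p = 0.000989), and Cldn4, a tight junction claudin (5.19 ± 0.77, adjusted p = 0.00319), were among the 7 called higher. Rab25, a GTPase of epithelial vesicle traffic (6.11 ± 0.80, adjusted p = 0.00193), Prom2 (5.56 ± 1.04) and the uroplakin gene Upk2 (2.79 ± 0.49) were the others. The 1 other probe set of Prom2 had the opposite sign, not called, and the 1 other of Epcam was not called. Not called were Tgm1, the transglutaminase of the skin barrier (2.06 ± 0.68, adjusted p = 0.125), Ovol2 (1.13 ± 0.53), Arhgef19 (-0.20 ± 0.51) and the desmosomal cadherin gene Dsg1a (-0.36 ± 0.39).

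Between stroma and detrusor 3 of the 11 were called higher in stroma and 0 lower, with a median of 1.51 against 0.25 for all probe sets. Of all probe sets 0.624% were called higher there and 0.859% lower. The 3 were Epcam (6.03 ± 0.69, SE, limma adjusted p = 0.00331), Esrp1 (5.09 ± 0.59, adjusted p = 0.00350) and Cdh1 (4.37 ± 0.79, adjusted p = 0.0244). On stroma 2 Epcam stood at 23.6%, Esrp1 at 33.4% and Cdh1 at 4.70% of their urothelium means. Without stroma 3 and urothelium 3 the counts were again 7 of 11 and 3 of 11. Between urothelium and stroma 0 of 11 were called by limma (median 1.77, against -0.25 for all probe sets). Only 0.04% of all probe sets were called there either way. At an unadjusted p under 0.05 there were 7 higher and 1 lower, and without stroma 3 and urothelium 3, 2 were called higher.

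The windows of 2 targets are shown because they were the only ones among the 7 of the 11 with a window that held a looser grainyhead match. Capitals mark CACCTG, the loosest grainyhead form named above, and the reverse complements of both, and coordinates are on GRCm38.p6.
Rab25, chr3:88548230-88548529, minus strand: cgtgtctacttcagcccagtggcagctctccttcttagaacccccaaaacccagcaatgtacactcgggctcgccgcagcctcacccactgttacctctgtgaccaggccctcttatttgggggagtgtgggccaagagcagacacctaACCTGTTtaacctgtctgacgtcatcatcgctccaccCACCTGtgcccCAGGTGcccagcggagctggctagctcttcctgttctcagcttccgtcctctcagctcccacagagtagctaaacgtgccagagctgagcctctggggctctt
Cldn4, chr5:134946885-134947184, minus strand: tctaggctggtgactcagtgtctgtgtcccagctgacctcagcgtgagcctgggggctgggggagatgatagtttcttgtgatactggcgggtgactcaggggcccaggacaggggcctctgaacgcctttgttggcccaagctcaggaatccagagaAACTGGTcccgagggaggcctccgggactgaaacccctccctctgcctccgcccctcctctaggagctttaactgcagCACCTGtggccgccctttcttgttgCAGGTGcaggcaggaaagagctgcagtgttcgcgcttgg
Rab25 had 1 match, ACCTGTT, part of an AACCNGTT match, and Cldn4 had 1, AACTGGT. AACCGGTT was in 0 of the 7. CACCTG was in 3 of the 7, Rab25, Cldn4 and Epcam, with 2 copies in each, beside the 20.2% of all windows.

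**Figure D4:**
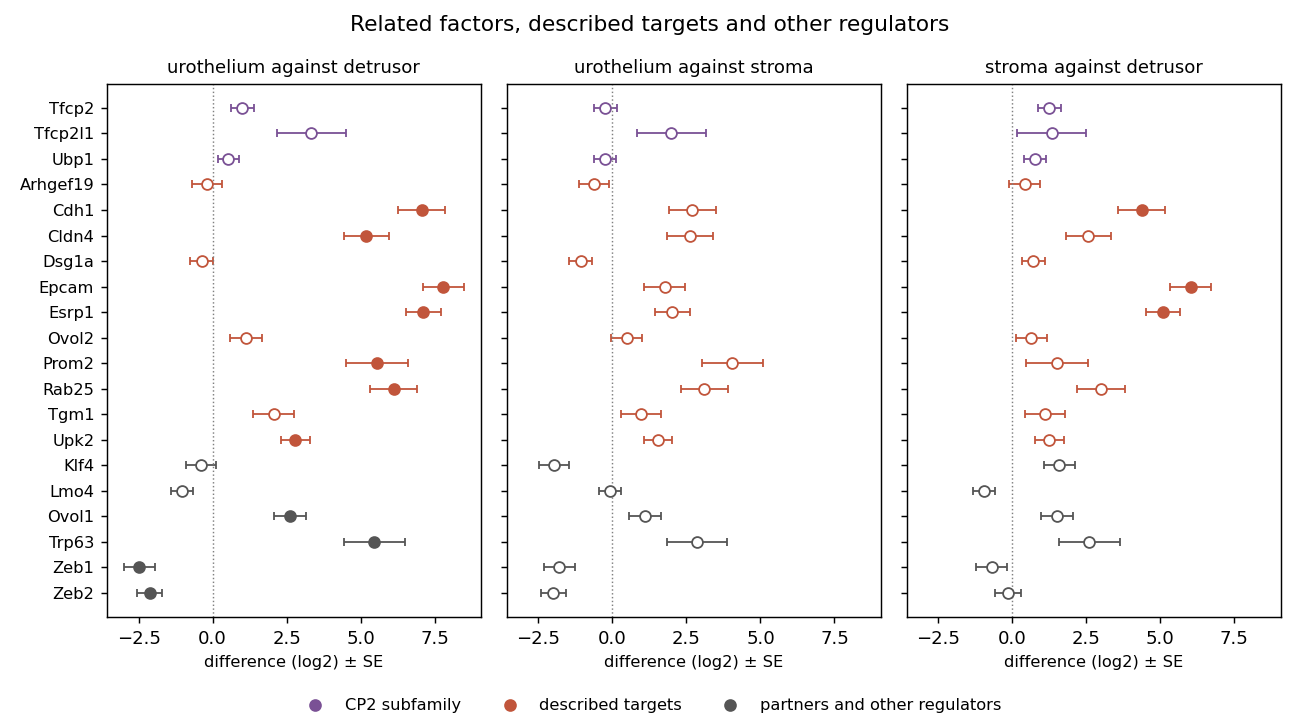
Log2 differences between layers, with SE, for the CP2 subfamily, the described targets and other regulators; filled points passed at an adjusted p under 0.05 in the fit over all probe sets. In urothelium against detrusor 7 described targets, Ovol1 and Trp63 are filled on the right and Zeb1 and Zeb2 on the left.

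The nearest relatives of the family, the CP2 factors Tfcp2, Tfcp2l1 and Ubp1, share its DNA-binding fold but are known as more widely expressed, apart from Tfcp2l1, which marks some epithelia. None of these 3 was called by limma in any layer comparison. Of all probe sets 5.21% were called either way in urothelium against detrusor. The share was 0.04% in urothelium against stroma and 1.48% in stroma against detrusor. At an unadjusted p under 0.05 there were 2 of 3 higher in urothelium than in detrusor, 0 against stroma and 1 higher in stroma than in detrusor. For urothelium against detrusor Tfcp2l1 differed by 3.33 ± 1.16 (SE, limma adjusted p = 0.150), with log2 levels of 12.14, 8.10 and 11.00 in urothelium, 5.98, 8.47 and 10.81 in stroma and 7.06, 7.46 and 6.71 in detrusor. Urothelium 2 was thus within the stroma range. Of the 2 other Tfcp2l1 probe sets, 1 had the opposite sign in urothelium against detrusor and 0 were called. Tfcp2 differed by 1.01 ± 0.39 and Ubp1 by 0.53 ± 0.37.

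The partners and other regulators analysed here were 6 genes. In urothelium against detrusor 2 of 6 were called higher and 2 lower, against 2.64% and 2.57% of all probe sets. The 2 that were higher were Trp63, the p63 factor of stratified and basal epithelium (5.46 ± 1.02, SE, limma adjusted p = 0.00945), and Ovol1, an epithelial zinc finger factor (2.61 ± 0.54, adjusted p = 0.0160). The 2 that were lower were Zeb1 (-2.48 ± 0.52, adjusted p = 0.0165) and Zeb2 (-2.13 ± 0.43, adjusted p = 0.0142), zinc finger repressors of epithelial genes, of which ZEB1 and GRHL2 are known to repress each other in human carcinoma cells. Each of these calls is for the brightest probe set of its gene. Of the 3 other Zeb1 probe sets, 1 had the opposite sign and 0 were called. Of the 4 others of Zeb2 and the 3 others of Trp63, 0 were called, while the 1 other of Ovol1 was called. Zeb1 had log2 levels of 11.09, 10.30 and 12.23 in urothelium, 13.31, 13.64 and 12.04 in stroma and 13.36, 14.18 and 13.51 in detrusor. Every urothelium array of Zeb1 thus lay below every detrusor array, while urothelium 3, with its smooth muscle transcripts, was the highest of the 3 and stroma 3, with its urothelial transcripts, the lowest of its layer. The part of those transcripts in the Zeb1 difference was not tested, and without stroma 3 and urothelium 3 the counts were again 2 higher and 2 lower. Lmo4, a LIM protein that partners Grhl3 in mice (-1.03 ± 0.37), and Klf4 (-0.38 ± 0.51) were not called. Between urothelium and stroma, and between stroma and detrusor, 0 of 6 were called by limma, beside 0.04% and 1.48% of all probe sets. At an unadjusted p under 0.05 there were 1 higher and 3 lower in urothelium than in stroma, and 3 higher and 1 lower in stroma than in detrusor. Without stroma 3 and urothelium 3, 1 of 6 was called lower in urothelium than in stroma.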

How the data were processed

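Total RNA from laser-captured bladder layers was hybridised to Affymetrix MOE430 arrays, 1 per sample. GCOS is named in the submitters' processing notes, and the deposited values are linear intensities. Which version and signal algorithm the authors ran, and to what level they scaled, is not given in the sources used here. A mean trimmed by 2% at each end was 1499.8 to 1500.01 per array, so a common scaling was in place and was kept. The value table has no detection calls, and precision is limited by the small number of arrays.

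Samples were grouped by the tissue source in the labels. Controls (64 of 45101 probe sets) were left out. Of the other 45037, 34945 had 1 gene symbol, 932 several and 9160 none, and a lookup by gene identifier in a GRCm38.p6 gene table matched 34741 with 0 symbols altered. To each intensity 39.31, the 20th percentile of all values, was added before log2. The layer comparisons used limma 3.58.1 (R 4.3.3, mean-variance trend) in 1 fit over 9 arrays with layer as the only term, day with layer as covariate, each adjusted by Benjamini-Hochberg over all probe sets. The fit was tested on simulated data. A listed gene is given by its probe set with the highest mean. Of 31 other probe sets of those genes, 4 had the opposite sign in urothelium against detrusor and 0 of the 4 were called, while 8 were called in the same direction. The text names all grainyhead-like probe sets, the CP2 factors, in each list the 4 genes with the smallest adjusted p in urothelium against detrusor and any called against the list, and the 5 genes most like each member; other list members are named to account for the list. Members, lists and alternatives were chosen with earlier results of these data known. Alternatives were quantile normalization, median centring, pseudocounts of 8.13 and 232.9, a brightness filter, a day covariate, no trend, array weights, and arrays left out.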

Additional observations from a re-analysis of the deposited data

How the results depend on the processing

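The calls of Grhl2 1427046_at (urothelium and stroma against detrusor) and of Grhl3 (urothelium against detrusor) held in all 18 alternatives, from 3.81 to 4.97, 2.62 to 3.86 and 3.82 to 5.21 on the log2 scale. Differences not called but passing elsewhere were Grhl1 in urothelium against detrusor with a pseudocount of 232.9 (3.19) or array weights (3.58), and Grhl3 in stroma against detrusor with array weights (2.63, adjusted p = 0.0392). With bright probe sets only, Grhl3 there had an adjusted p of 0.0412 at 2.49, but it passes that filter only through the layers in which it is high, so this call adds no support. Uncalled differences that changed sign were as follows. For Grhl1 in stroma against detrusor, 0.22, they were -0.19 with median centring, -0.32 with a pseudocount of 8.13, -0.91 without stroma 3 and urothelium 3 together, and -0.91 to 2.07 with 1 array left out. For Grhl2 1431878_at they were 0.020 with array weights and 0.44 without stroma 3 and urothelium 3 in urothelium against detrusor (-0.88 to 0.44 with 1 array left out), and 0.071 without those arrays in urothelium against stroma. For Grhl2 1452643_at in urothelium against stroma it was 0.18 with median centring, and -0.76 to 0.070 with 1 array left out. For Grhl2 1431877_a_at in urothelium against detrusor the range with 1 array left out was -0.071 to 0.44. For day, Grhl2 1427046_at gave -0.051 with median centring, and with 1 array left out Grhl3 ran from -0.64 to 0.13, Grhl2 1431878_at from -0.085 to 1.29 and Grhl1 from -1.64 to 0.12. The cause of these changes was not tested.

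Counts over all probe sets moved more. Urothelium against detrusor had 2347 called, 4590 with array weights and 1029 to 2634 with 1 array left out. Urothelium against stroma had 18 called, 6 with quantile normalization, 4 with array weights, 198 without stroma 3 and urothelium 3, 0 to 409 with 1 array left out, and 0 with median centring, a pseudocount of 232.9, the day covariate or no trend, so absence of a call says little there. Stroma against detrusor had 668 called, 281 higher and 387 lower, 288 without the trend, 409 without stroma 3 and urothelium 3, and 85 to 795 with 1 array left out. Median centring gave 136 higher and 733 lower and moved the median of all probe sets from 0.25 to -0.17 there and from -0.25 to 0.18 in urothelium against stroma. Day had 5 called, 3 with a pseudocount of 232.9 and 3 to 6 with 1 array left out. No paired analysis was possible because the labels give no number shared between layers.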
